A study of Homo sapiens with 2 samples.

Results

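The enzymes of phospholipid, phosphoinositide and sphingolipid metabolism are described here in SNU-449, an established line of human hepatocellular carcinoma, after ezetimibe. Ezetimibe lowers plasma cholesterol by blocking NPC1L1, the transporter through which the gut takes up sterols. One culture had received the drug for 24 h and the other was the control, with no vehicle named in the labels, and each gave 1 RNA-seq library. The only values come from the authors' deposited table of KEGG pathway enrichment, which names the genes listed as changed under each pathway and their direction, with no level, fold change or p-value for a gene. The genes were selected on these same calls. They are the changed genes of 5 KEGG pathways (Inositol phosphate metabolism, Phosphatidylinositol signaling system, Glycerophospholipid metabolism, Glycerolipid metabolism and Sphingolipid metabolism), without those also under any of 16 signalling, lysosomal, autophagy, fatty acid, glycolysis and cholesterol pathways, and without 3 subunits of phosphoinositide 3-kinase. This left 57 of the 2238 genes in the table, from 90 before the subtraction.

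Cell membranes are built mainly of glycerophospholipids, sphingolipids and cholesterol. Phosphatidic acid, made by adding acyl chains to glycerol phosphate, is the branch point for the main glycerophospholipids and for triacylglycerol, the storage fat that hepatocytes also export. Phosphatidylinositol is phosphorylated on its inositol ring by dedicated kinases, and phosphatases take the phosphates off again, which gives each membrane of the cell its own phosphoinositide mark. Ceramide is the core of the sphingolipids, and it is turned into sphingomyelin, glycosphingolipids or, through sphingosine, into sphingosine phosphate.

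Because there was 1 library per condition, no difference has a replicate check and no test between the conditions is possible. Sequencing depth is unknown from this table, and the levels of liver markers cannot be checked in it. Up was taken to mean higher with ezetimibe, because the comparison names the treated culture first, and the table holds no value that could check this. A gene under a pathway but not in its list was not measured or did not meet the authors' criteria (not given in the sources used here). Where coordinates are printed they are those of GENCODE release 29 on GRCh38, and the authors' own build is not known here.

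Of the 57 genes, 20 stood on the up list and 37 on the down list. This is a share up of 35.1% (95% interval 22.9 to 48.9 by the exact Clopper-Pearson method, for counting error only), against 32.5% of the other 2181 listed genes (30.5 to 34.5). Of the 8877 background genes of the table, 25.2% were listed as changed, 8.20% as up and 17.0% as down. The genes were chosen from the changed ones, so nothing is read from how many of them were changed, and their share up lies near that of the other genes. The 33 genes that the subtraction removed had 12 up and 21 down (36.4%). The directions were thus mixed, and what follows is which enzymes stood on which side, as the plot of directions by role shows.

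**Figure D1:**
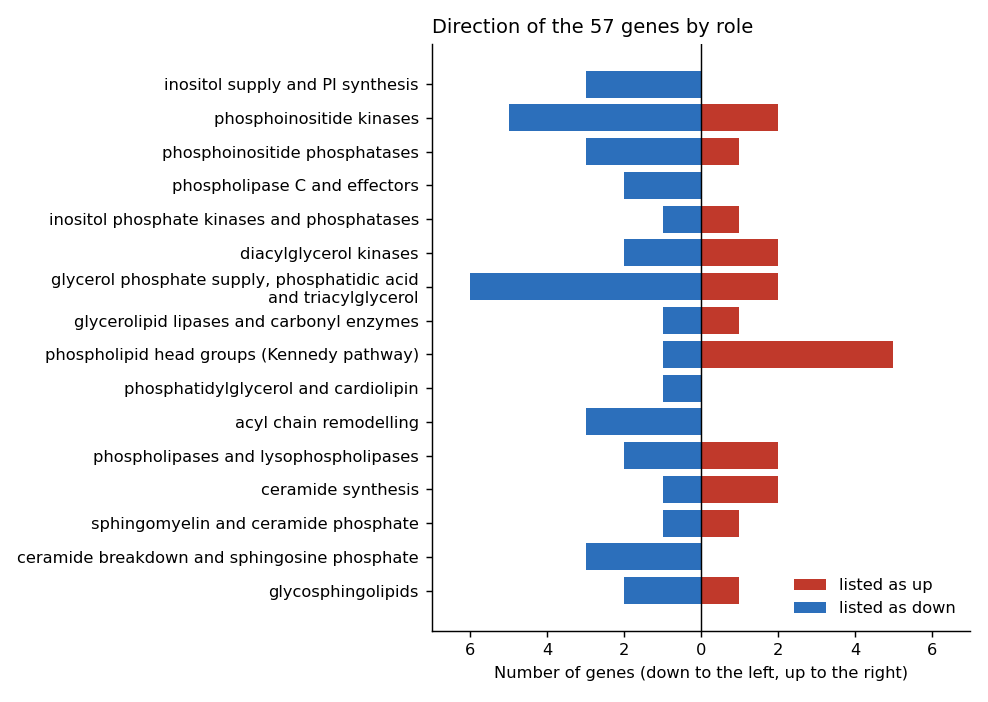
Number of genes listed as up (right of 0, red) and as down (left of 0, blue) after ezetimibe, for 16 roles that cover all 57 genes. Head group genes have 5 up and 1 down, while 5 roles have no gene listed as up. Of the other listed genes of the table, 32.5% were listed as up.

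Between 26.5% and 35.2% of a pathway's genes were listed as changed, with the phosphoinositide pathways highest. Per the authors' deposited table, the Phosphatidylinositol signaling system had 37 of 105 genes listed (35.2%; rich factor, the ratio to the background share, 1.40, p = 0.0422, q = 0.164). In the authors' deposited table, Inositol phosphate metabolism had 25 of 80 listed (31.3%; rich factor 1.24, p = 0.243). Rich factors in the authors' deposited table were 1.11 for Sphingolipid metabolism (16 of 57), 1.06 for Glycerolipid metabolism (19 of 71) and 1.05 for Glycerophospholipid metabolism (31 of 117), with p-values of 0.556, 0.683 and 0.696. These p-values are the authors' own, take genes as the unit and count the removed genes too. By direction, the genes kept had 2 up and 12 down under Inositol phosphate metabolism, 5 and 14 under Phosphatidylinositol signaling, 11 and 15 under Glycerophospholipid metabolism, 5 and 9 under Glycerolipid metabolism and 5 and 7 under Sphingolipid metabolism. Taken as a block, the 22 genes of the phosphoinositide pathways had 6 up (27.3%, 10.7 to 50.2), against 14 of the 35 genes found only under the other pathways (interval of the share 23.9 to 57.9%). The intervals overlap widely, and this difference was not tested.

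The supply of inositol and the first step towards phosphatidylinositol were listed as down wherever they were listed. IMPA1 and IMPA2, the monophosphatases that release free inositol and are inhibited by lithium, were both down. So was CDS1, which turns phosphatidic acid into the CDP-diacylglycerol from which phosphatidylinositol and cardiolipin are made. Its paralog CDS2, the phosphatidylinositol synthase CDIPT and the inositol phosphate synthase ISYNA1 were not listed. Only 3 of the 11 genes of this list were listed, and most of the other listed genes were down too (32.5% up).

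Of the 7 phosphoinositide kinases kept, 2 were up (28.6%) and 5 down, near the 32.5% up of the other listed genes. An opposite pair stood at the first phosphorylation. PI4K2A (ENSG00000155252; chromosome 10, 97640686 to 97676434), which makes phosphatidylinositol 4-phosphate on endosomes and the Golgi, was listed as up. Its paralog PI4K2B (ENSG00000038210; chromosome 4, 25233975 to 25279092) was listed as down. All 3 class II phosphoinositide 3-kinases, PIK3C2A, PIK3C2B and PIK3C2G, were down. These enzymes make 3-phosphorylated lipids for endocytosis and endosomal traffic. PIP4K2B, which converts phosphatidylinositol 5-phosphate, was down, and PIP5KL1, a kinase-like partner of the PIP 5-kinases, was up. With the 3 subtracted subunits PIK3CA, PIK3R1 and PIK3R3, the list of 24 lipid kinases and subunits had 10 listed genes, 2 up and 8 down. The kinases PI4KA, PI4KB, PIP5K1A, PIKFYVE and PIK3C3 were not listed.

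Among the phosphatases that act on these lipids, INPP4B, which removes the 4-phosphate of phosphatidylinositol 3,4-bisphosphate, was listed as down. SYNJ1, the synaptojanin that strips phosphoinositides from clathrin-coated vesicles, and INPP5F, a Sac-domain phosphatase of endosomal phosphatidylinositol 4-phosphate, were also down. TMEM55B (current symbol PIP4P1), a lysosomal membrane protein described as a phosphatidylinositol 4,5-bisphosphate 4-phosphatase, was up. The myotubularins MTMR3 and MTMR14, which remove the 3-phosphate, were listed as up but had been subtracted. Of the 11 genes placed under both phosphoinositide pathways and no other of the 5, 10 were down and PI4K2A was the only 1 up. Those under only Inositol phosphate metabolism had 1 up and 2 down, and those under only Phosphatidylinositol signaling 2 up and 1 down. The group of 11 was picked out after the directions were seen, and 32.5% of the other listed genes of the table were up.

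Of the genes that turn phosphatidylinositol 4,5-bisphosphate and its products into signals, those listed were mostly down, but many were not listed. Most of the other listed genes of the table were down too (32.5% up). PLCH1 and PLCH2, the eta phospholipases C, were both down. The wider list of phospholipases C, inositol trisphosphate receptors, protein kinases C and calmodulins had 12 of 26 genes listed, 1 up (PLCG2) and 11 down, all but PLCH1 and PLCH2 removed by the subtraction as members of calcium or other signalling pathways. Downstream of inositol trisphosphate, the hexakisphosphate kinase IP6K1 was up and PPIP5K2, which adds a further pyrophosphate, was down. Both make inositol pyrophosphates, and of the other 16 genes of their list ITPKC was up, ITPKB and MINPP1 were down, and 13 were not listed.

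Diacylglycerol kinases, which end the diacylglycerol signal by turning it into phosphatidic acid, divided evenly. DGKQ (ENSG00000145214; chromosome 4, 958887 to 986895) and DGKZ (ENSG00000149091; chromosome 11, 46332905 to 46380554) were up. DGKA (ENSG00000065357; chromosome 12, 55927319 to 55954027) and DGKH (ENSG00000102780; chromosome 13, 42040036 to 42256578) were down. The transcript of DGKH was the longest of the 57, with 17261 bases and a GC content of 37.9%, against 5737 bases and 61.1% for DGKZ. The promoters of DGKZ and DGKH are shown because these kinases catalyse the same reaction and were listed in opposite directions. They differ in base composition too. The same reason holds for DGKQ and DGKA, which are not shown, and DGKH had the lowest transcript GC content of the 4 kinases. Which start these cells use is not known here. The 250 bases before the start hold 73.2% G and C in DGKZ and 45.6% in DGKH. These are RefSeq sequences on GRCh38.p14, at chr11:46332676-46332925 (plus strand) for DGKZ, before the first of 3 starts given, and at chr13:42039820-42040069 (plus strand) for DGKH, before the first of 2. Capitals mark the GC box GGGCGG on either strand, which binds the SP family of transcription factors. It occurs 3 times in DGKZ and not at all in this window of DGKH.
DGKZ: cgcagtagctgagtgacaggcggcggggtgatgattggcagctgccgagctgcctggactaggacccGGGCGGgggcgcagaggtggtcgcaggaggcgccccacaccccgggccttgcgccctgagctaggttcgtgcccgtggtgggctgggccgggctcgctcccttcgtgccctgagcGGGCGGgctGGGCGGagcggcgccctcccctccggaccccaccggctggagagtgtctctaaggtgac
DGKH: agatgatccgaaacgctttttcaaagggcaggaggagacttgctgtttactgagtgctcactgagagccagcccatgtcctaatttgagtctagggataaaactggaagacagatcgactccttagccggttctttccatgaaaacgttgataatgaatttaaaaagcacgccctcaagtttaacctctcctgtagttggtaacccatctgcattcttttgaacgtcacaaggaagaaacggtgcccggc

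On the route from glycerol phosphate to phosphatidic acid and triacylglycerol, 6 of the 8 listed genes were down and 2 were up. Most genes of the route were not listed, and most of the other listed genes of the table were down too (32.5% up). GPD1L and the mitochondrial GPD2, dehydrogenases that interconvert dihydroxyacetone phosphate and glycerol 3-phosphate, were down. GPAT3 and AGPAT5, which attach the first and second acyl chain, were down, as were LPIN3, a lipin that makes diacylglycerol from phosphatidic acid, and DGAT2 (ENSG00000062282; chromosome 11, 75759512 to 75801535), which completes triacylglycerol. The membrane phosphatases PLPP3 and PLPP5, which also remove the phosphate of phosphatidic acid and related lipids, were up. Of the 29 genes of this list 8 were listed, and GPAM, AGPAT1, AGPAT2, LPIN1, LPIN2 and DGAT1 were not. Of other glycerolipid enzymes, the lipase-related PNLIPRP3 was up and the aldo-keto reductase AKR1B10 was down.

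Of the 19 genes in the list of phospholipid head groups, 6 were listed, 5 as up and 1 as down. PCYT2 (ENSG00000185813; chromosome 17, 81900965 to 81911464) makes CDP-ethanolamine, the rate-limiting step of the CDP-ethanolamine route. PISD (ENSG00000241878; chromosome 22, 31618491 to 31662432) makes phosphatidylethanolamine from phosphatidylserine in mitochondria. PEMT (ENSG00000133027; chromosome 17, 17505563 to 17591708), a liver enzyme, methylates phosphatidylethanolamine to phosphatidylcholine. All 3 were up, and with them ADPRM, a CDP-alcohol and ADP-ribose pyrophosphatase, and ACHE, acetylcholinesterase, which KEGG places here because it releases choline. ETNK1 (ENSG00000139163; chromosome 12, 22625075 to 22690665), the ethanolamine kinase that feeds PCYT2, was down. Thus 2 successive enzymes of 1 route were listed in opposite directions. The 13 other genes of the list were not listed, among them the choline kinases CHKA and CHKB, the choline-route enzyme PCYT1A and the phosphatidylserine synthases PTDSS1 and PTDSS2. The role was singled out after its directions were seen, and 6 genes are few.

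The PCYT2 promoter is shown as that of the committed step among these genes. It lies at chr17:81911400-81911649 on the minus strand (RefSeq, GRCh38.p14, 250 bases before the first of 2 starts given), holds 200 bases of G or C, and has 7 GC boxes, in capitals, of which 2 overlap.
PCYT2: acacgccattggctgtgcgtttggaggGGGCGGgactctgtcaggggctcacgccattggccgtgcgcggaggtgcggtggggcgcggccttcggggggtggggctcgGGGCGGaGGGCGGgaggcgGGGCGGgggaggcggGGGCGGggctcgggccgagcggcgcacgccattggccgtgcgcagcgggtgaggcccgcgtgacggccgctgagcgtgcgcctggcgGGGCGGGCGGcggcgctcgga

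The 4 listed enzymes that exchange acyl chains on finished phospholipids were down. They were LPCAT4 and MBOAT2, acyltransferases of lysophospholipids, LPGAT1, an acyltransferase first described for lysophosphatidylglycerol, and LCLAT1, which remodels cardiolipin and phosphatidylinositol. They are the only genes listed of 15 in the lists of remodelling and of phosphatidylglycerol and cardiolipin. LPCAT1, LPCAT3, MBOAT7, CRLS1 and TAFAZZIN were not listed. Most of the other listed genes of the table were down too (32.5% up), and 4 genes are few. Hydrolases of phospholipids were evenly divided. GPCPD1, which splits glycerophosphocholine, and PLD3, a lysosomal member of the phospholipase D family, were up. LYPLA1, an acyl-protein thioesterase and lysophospholipase, and PNPLA7, a lysophospholipase, were down.

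Among the sphingolipid genes, ceramide synthases were listed in both directions. CERS4 (ENSG00000090661; chromosome 19, 8206736 to 8262421) and CERS5 (ENSG00000139624; chromosome 12, 50129306 to 50167533) were up, and CERS6 (ENSG00000172292; chromosome 2, 168455862 to 168775137) was down. CERS5 and CERS6 both prefer palmitoyl-CoA, whereas CERS4 uses longer acyl chains. The serine palmitoyltransferase subunits SPTLC1, SPTLC2 and SPTLC3, the ketoreductase KDSR and the desaturases DEGS1 and DEGS2, which act before and after the synthases, were not listed. The CERS5 and CERS6 promoters are shown as those of synthases with the same substrate preference and opposite directions. RefSeq places them at chr12:50167370-50167619 (minus strand) and chr2:168456022-168456271 (plus strand) of GRCh38.p14, the 250 bases before the start, with 1 start each. They hold 76.8% and 70.4% G and C, with 5 GC boxes in CERS5 and 3, of which 2 overlap, in CERS6, again in capitals.
CERS5: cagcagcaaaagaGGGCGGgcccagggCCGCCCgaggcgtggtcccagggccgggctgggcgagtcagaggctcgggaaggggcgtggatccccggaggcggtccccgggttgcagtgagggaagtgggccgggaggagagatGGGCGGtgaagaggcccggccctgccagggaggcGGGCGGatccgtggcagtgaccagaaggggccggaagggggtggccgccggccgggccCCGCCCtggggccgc
CERS6: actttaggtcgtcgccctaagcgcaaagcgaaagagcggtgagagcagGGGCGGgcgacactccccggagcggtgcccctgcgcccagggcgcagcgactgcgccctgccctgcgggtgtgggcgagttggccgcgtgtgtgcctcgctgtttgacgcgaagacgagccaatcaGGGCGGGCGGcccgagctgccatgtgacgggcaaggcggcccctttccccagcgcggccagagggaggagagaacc

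The GC box was found in the 250 bases before the start in 42.3% of 27305 human promoters, 1 per gene symbol, so its presence in 4 of these 5 says little. None of the 5 sequences held TGATGNAA, the core of sites bound by ATF4 (in 3.19% of all promoters), TCACNCCAC, a sterol regulatory element (0.875%), or TCACGTGA, a site of TFEB (0.890%), on either strand. A match is a description and not a bound site. RefSeq promoters were found for 41 of the 57 genes (71.9%), under the 80% set for a comparison over the genes, so none was made.

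Of the 9 genes in the list of sphingomyelin and ceramide phosphate 2 were listed, in opposite directions. SGMS2 (ENSG00000164023; chromosome 4, 107824563 to 107915047), which makes sphingomyelin at the plasma membrane, was listed as down, and SMPD2 (ENSG00000135587; chromosome 6, 109440763 to 109443919), a neutral sphingomyelinase, was up. The synthase SGMS1 and the sphingomyelinases SMPD1, SMPD3 and SMPD4 were not listed. ACER2 and ACER3, alkaline ceramidases of the Golgi and the endoplasmic reticulum, were down, and the ceramidases ASAH1, ASAH2, ASAH2B and ACER1 were not listed. SGPP1, which dephosphorylates sphingosine phosphate, was down. SPHK1, which makes sphingosine phosphate, was listed as up but had been subtracted. Among glycosphingolipid genes, B4GALT6, a lactosylceramide synthase, and NEU3, the ganglioside sialidase of the plasma membrane, were down, while GAL3ST1, which makes sulfatide, was up. The subtracted lysosomal genes of that list were ARSA and NEU1, both up, and GALC, down.

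Paralogs gave a closer comparison, since they share a reaction. In 8 families with 2 or more of the 57 genes, 20 genes in all, 5 families went 1 way and 3 were split. The class II phosphoinositide 3-kinases, eta phospholipases C, alkaline ceramidases and inositol monophosphatases were down, and the lipid phosphate phosphatases were up. In the 3 split families every gene listed as up had a higher transcript GC content than every gene listed as down. The values were 53.7% for PI4K2A against 39.0% for PI4K2B. They were 48.4% for CERS5 and 57.5% for CERS4 against 41.6% for CERS6. They were 61.1% for DGKZ and 66.0% for DGKQ against 50.9% for DGKA and 37.9% for DGKH. In the coding part alone, CERS5, listed as up, had a GC content of 45.9%, against 47.1% for CERS6, listed as down. The other up genes of these families stayed above the down genes there. Within the families that went 1 way, GC content also differed, with 44.7% in PLCH1 and 66.9% in PLCH2, and 36.4% in IMPA1 and 59.1% in IMPA2, all down.

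**Figure D2:**
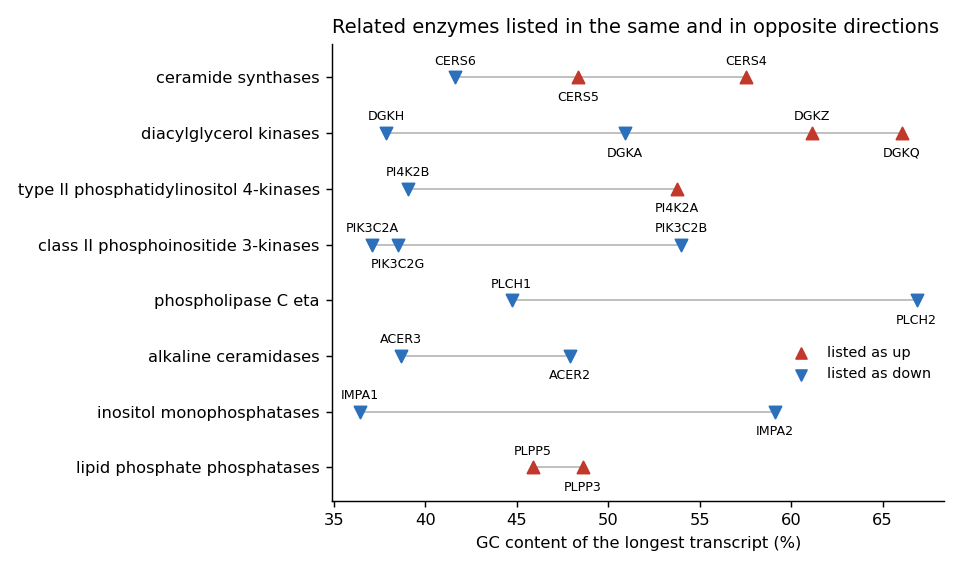
GC content of the longest transcript (horizontal axis, percent) for the 20 genes in 8 enzyme families (rows), with red upward triangles for genes listed as up and blue downward triangles for genes listed as down. In the 3 families at the top the genes listed as up lie to the right of those listed as down.

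The same held as a tendency over all 57 genes. Median GC content was 56.9% for the 20 genes listed as up (lowest 36.5, highest 66.0) and 41.9% for the 37 listed as down (lowest 33.4, highest 66.9). For the other listed genes the medians were 55.2% and 43.7%. Exceptions stood on both sides of the median of all listed genes, 47.0%. Below it 4 of 29 genes were up, GPCPD1 (36.5%), PNLIPRP3 (39.0%), ADPRM (41.8%) and PLPP5 (45.9%). At or above it 12 of 28 genes were down. Of these, AKR1B10 (47.5%), ACER2 (47.9%), NEU3 (49.0%), DGKA (50.9%), DGAT2 (52.2%), PIP4K2B (53.3%) and PIK3C2B (54.0%) lay nearer the median, and PLCH2 (66.9%), PNPLA7 (65.4%), IMPA2 (59.1%), LPIN3 (58.6%) and LPCAT4 (56.7%) had the highest GC content. B4GALT6 (33.4%) and ETNK1 (34.6%), both down, had the lowest of all 57.

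**Figure D3:**
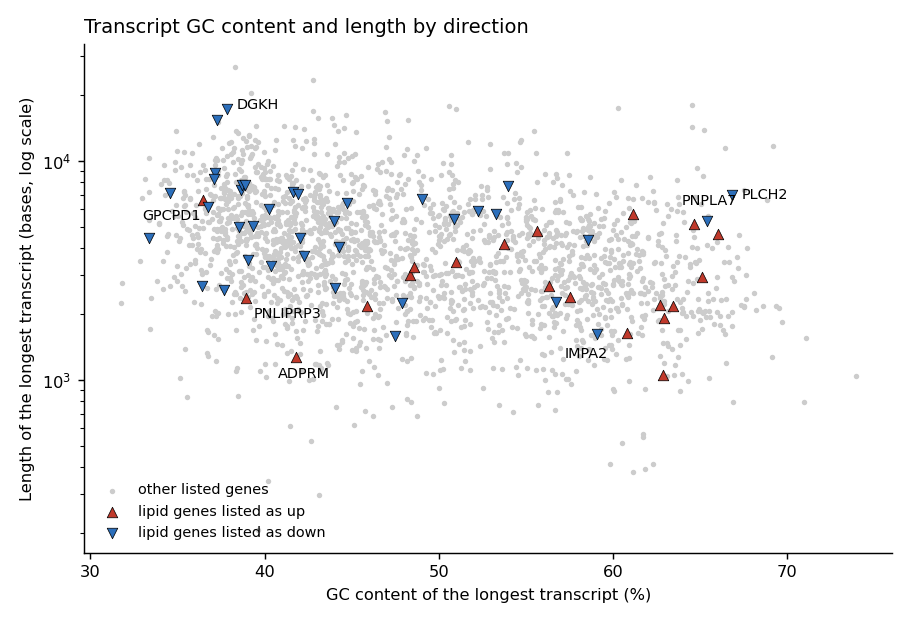
GC content (horizontal axis, percent) and length (vertical axis, bases, log scale) of the longest transcript of each gene, with grey points for the other listed genes and triangles for the 57 lipid genes, red for up and blue for down. Genes listed as up lie mostly to the right, with GPCPD1, PNLIPRP3 and ADPRM among the exceptions at the left and PLCH2 and PNPLA7 among those at the right.

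Within classes of GC content the lipid genes were listed as up about as often as other genes. Below the median of all listed genes, 4 of 29 lipid genes were up (13.8%, 3.89 to 31.7), against 134 of 1089 other genes (12.3%, 10.4 to 14.4). At or above it, 16 of 28 were up (57.1%, 37.2 to 75.5), against 574 of 1091 others (52.6%, 49.6 to 55.6). The intervals of the lipid genes are wide and include the share of the other genes in both classes. Of the head group genes, PCYT2 (64.6%), PEMT (62.9%), ACHE (65.1%) and PISD (56.4%) lay above the median, while ADPRM (41.8%), up, and ETNK1 (34.6%), down, lay below it. The part of base composition in these directions was not tested.

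**Figure D4:**
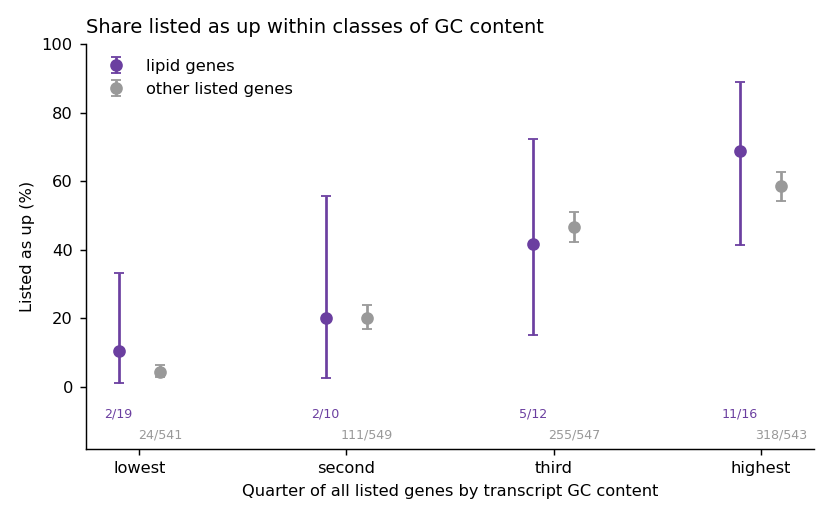
Share of genes listed as up (vertical axis, percent, with exact 95% intervals for counting error) in 4 equal classes of transcript GC content over all listed genes, for the lipid genes (purple, left of each pair) and the other listed genes (grey). The fractions under the points are genes up over all genes in the class, and the share climbs in both sets, with 2 of 19 lipid genes up in the lowest class and 11 of 16 in the highest.

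Genes listed as down had longer transcripts. In the longest protein-coding transcript, the coding part had a median of 1226 bases among the up genes and of 1383 among the down genes. The median length of the 3′ untranslated part was 969 bases among the up genes and 2281 among the down genes. The upper quartiles were 1445 and 3387 bases of coding part, and 1754 and 4418 bases of 3′ untranslated part, so the longer genes of each direction differed in both parts. For the other listed genes the medians were 1218 and 1581 bases of coding part and 817 and 1643 bases of 3′ untranslated part. DGKH, with 13748 bases, had the longest 3′ untranslated part and SMPD2, with 17 bases, the shortest. CERS6 had 5478 bases against 1242 in CERS5, while PI4K2B, down, had 1908 against 2695 in PI4K2A, up. The span of the gene had a median of 33866 bases among the up genes and of 69962 among the down genes. The part of length in the directions was not tested.

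**Figure D5:**
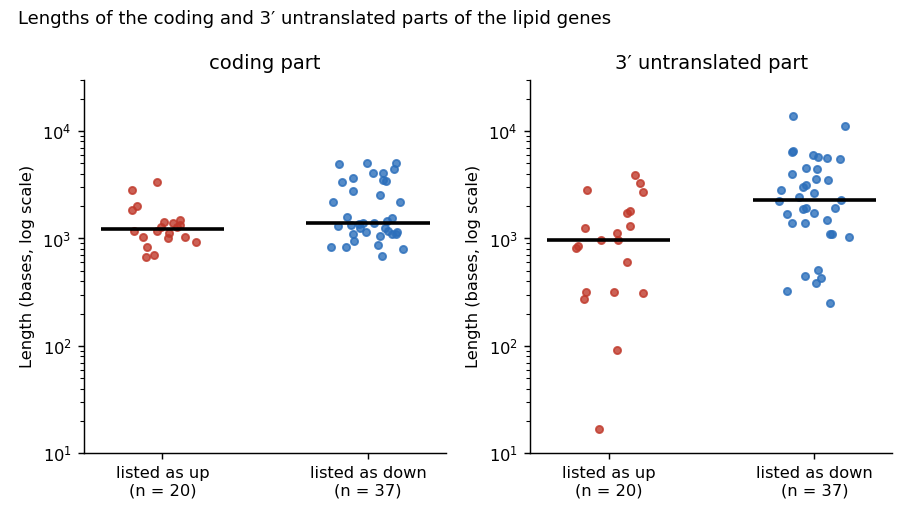
Length in bases (vertical axes, log scale) of the coding part (left panel) and of the 3′ untranslated part (right panel) of the longest protein-coding transcript for lipid genes listed as up (red, n = 20) and as down (blue, n = 37), with 1 point per gene and a black line at the median. The medians are 1226 and 1383 bases for the coding part and 969 and 2281 bases for the 3′ untranslated part, and the points of the directions overlap in both panels.

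The 57 genes lie on 21 chromosomes. Chromosome 4 holds the most, with DGKQ up and CDS1, GPAT3, INPP4B, PI4K2B and SGMS2 down. The 4 genes on chromosome 2, CERS6, GPD2, LCLAT1 and MBOAT2, were all down. Both genes on chromosome 19, CERS4 and PLD3, and both on chromosome 22, GAL3ST1 and PISD, were up, as were 3 of the 4 on chromosome 17, with PIP4K2B down. Over all chromosomes 32.5% of the other listed genes were up. Their directions on each chromosome were not counted, so nothing is read from position. Single calls carry a limit where genes overlap, as it is not known here whether the authors' counting used strand. Exons of 8 of the 57 share bases with a protein-coding gene on the other strand, 5 of them up (PCYT2, PISD, PLD3, SMPD2 and TMEM55B) and 3 down (DGKA, LPIN3 and PPIP5K2). On the same strand PI4K2A and PLPP3, up, and PI4K2B and PIK3C2A, down, share exonic bases with another protein-coding gene, 1173 bases in PI4K2A and 1297 in PI4K2B, which a strand setting would not separate. For PCYT2 the overlap is 1941 bases shared with NPB, so reads of either gene could have been counted for the other. AGPAT5, AKR1B10, IMPA1, LYPLA1 and DGKZ have pseudogene copies named in the annotation, which could take or give reads.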

How the data were processed

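Total RNA of 1 SNU-449 culture treated with ezetimibe for 24 h and of 1 control culture was sequenced. HISAT2 2.0.4 and StringTie 1.3.0 were used, per the submitters' processing notes. The settings, genome build and threshold for a changed gene were not given in the sources used here. Per the file headers, the authors' table holds, for each of 327 KEGG pathways, the numbers and names of genes listed as up and as down, the background genes, a rich factor (the ratio of the pathway's share of changed genes to its share of background genes), a p-value and a q-value, all deposited by the authors and printed as theirs. The name of the table gives edgeR as a step of the authors.

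Genes were taken from the table by pathway. They and the role lists were chosen with earlier results of these data known. All 57 genes are named under 16 roles, from lists of 286 genes. The lists were matched by gene symbol, as printed in the authors' table or current, to Ensembl gene IDs. In the 5 pathways, 1 listed gene outside the 57 was in no role list. Directions were counted, with exact Clopper-Pearson 95% intervals. Intervals cover counting error only, and genes of 1 pathway are not independent. Transcript GC content and lengths came from GENCODE release 29, for 57 of 57 genes and 2237 of 2238 listed genes. The table-reading step was tested on simulated data. Protein sequences were not used here. Alternatives dropped or added pathways and genes. Counting ran in Python 3.11.15 with pandas 2.3.3, intervals came from SciPy 1.17.1 (on NumPy 2.4.6), and plots from Matplotlib 3.10.9. Some genes of the role lists are not reported here.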

Additional observations from a re-analysis of the deposited data

How the results depend on the processing

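The share of genes listed as up, 35.1%, stayed within its 95% interval in 12 of 14 alternatives, between 28.9% and 44.1%. The lowest value came from leaving out genes that share exonic bases with another protein-coding gene (13 of 45 up), an alternative chosen after seeing the data. The share left the interval where the genes were divided by transcript GC content, with 57.1% at or above the median of all listed genes and 13.8% below it. Leaving out genes of unknown GC content removed none of the 57, so that alternative could not differ. Another, also chosen after seeing the data, counted only the 33 subtracted genes, none of them among the 57. Most of the rest reuse many of the same genes, and the interval is wide. By role, 9 of 16 roles had more genes down than up (56.3%), or 11 of 16 (68.8%) with the subtracted genes, whereas all 5 KEGG pathways did (100%). The cause was not tested. The difference in median GC content between genes listed as up and as down, 15.0 percentage points, was 16.8 with the longest protein-coding transcript and 11.6 in the coding part alone, both added after seeing the data. Promoter GC content and motif shares over the genes were not run, as 71.9% had a promoter. No paired analysis was possible because each condition had 1 library and no value per library was used. Depth is unknown, so no limit of detection can be given.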

Other observations

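Several of the genes are shared with neighbouring KEGG pathways of lipid signalling. Choline metabolism in cancer held 7 of them, with DGKQ, DGKZ, GPCPD1 and PLPP3 up and DGKA, DGKH and LYPLA1 down, which is 18.4% of its 38 listed genes (13 up, 25 down). The Sphingolipid signaling pathway also held 7, with CERS4, CERS5 and SMPD2 up and ACER2, CERS6, SGMS2 and SGPP1 down, or 15.9% of its 44 listed genes (15 up, 29 down). The Phospholipase D signaling pathway held 6, 3 up and 3 down, or 10.7% of its 56 listed genes (18 up, 38 down). Ether lipid metabolism, the branch with an alkyl or alkenyl chain, held 4, with GAL3ST1, PLD3 and PLPP3 up and LPCAT4 down, or 36.4% of its 11 listed genes (6 up, 5 down). In the authors' deposited table the p-values of these pathways were 0.0460, 0.0697, 0.0147 and 1, and the q-values 0.175, 0.235, 0.0778 and 1.

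Under all 327 pathways of the table, the genes of the 57 listed as up and those listed as down were each found under a median of 3, against 2 for the other listed genes in either direction, and PLPP3 was under the most, 9. The 18 genes under exactly 2 of the 5 lipid pathways had 2 up and 16 down, against 15 up and 19 down among the 34 under exactly 1 and 3 up and 2 down among the 5 under 3. PI4K2A and PLPP5 were the genes listed as up in the first of these groups. These groups were formed after the directions were seen.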
